A study of Homo sapiens with 6 samples.

Results

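The phagocyte NADPH oxidase subunits are 6 genes of the 61806 in the deposited table: CYBB and CYBA, which encode the membrane cytochrome, NCF1 and NCF4, which encode cytosolic subunits, and RAC1 and RAC2, which encode the small GTPases that switch the enzyme on. They were found by matching Ensembl gene identifiers to these symbols, and all 6 had a row and passed the filter on low counts. They were followed in NB4, a cell line grown from acute promyelocytic leukaemia, in which cells stop at a granulocyte precursor stage. NB4 cells given CD69, a lectin-like surface receptor of leukocytes, by lentivirus (3 libraries) were set against NB4 cells described as vector controls, whose genotype label is wild-type (3 libraries). Both groups were grown in the same medium without any drug, carried the same batch label and were harvested in logarithmic growth. The sources used here give no promoter for CD69, and do not say whether the transduced cells were pools or clones. The series text calls the libraries biological replicates, without saying whether those of a group came from separate transductions. The p-values therefore measure the spread between these libraries, which may be technical.

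The oxidase of neutrophils and macrophages passes electrons from NADPH across a membrane to oxygen and so makes superoxide, the source of the respiratory burst. At rest the flavocytochrome of CYBB (also called NOX2) and CYBA sits in the membrane while the cytosolic subunits wait apart. On activation the organiser subunit encoded by NCF1 is phosphorylated, the cytosolic subunits, NCF4 among them, move to the membrane, and GTP-bound Rac joins them. In human neutrophils the Rac of the oxidase is mainly RAC2, which is restricted to blood cells, while RAC1 is made in nearly all cells. Loss of CYBB, CYBA, NCF1 or NCF4 causes chronic granulomatous disease, and the full complement of subunits is reached only late in granulocyte maturation.

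Total counts were between 51543550 and 57463020 per library. CD69 itself averaged 97.7 ± 1.75 CPM in the overexpressing and 77.6 ± 6.14 CPM in the control libraries (CPM, counts scaled to a common library size by TMM; SD, n = 3 each), or 0.33 higher on the log2 scale (SE 0.07; adjusted p = 0.0153 in edgeR), a call lost without overexpressing replicate 2 (adjusted p = 0.0618), with overexpressing replicate 1 alone (adjusted p = 0.213) and in a glmTreat test for folds beyond 1.2 (adjusted p = 0.260). Of the promyelocyte markers, the summed level was 2545 to 2900.0 CPM in the overexpressing libraries and 1443 to 1601 CPM in the controls, but MPO, the myeloperoxidase that marks this stage, was near 0 in both, at 0.518 to 1.03 CPM in overexpressing cells and 0.928 to 1.45 CPM in controls. The T cell list summed to 0.732 to 1.49 CPM in overexpressing cells and 1.99 to 2.03 CPM in controls, and the erythroid list to 1.66 to 2.12 CPM in overexpressing cells and 1.68 to 3.25 CPM in controls. In the monocyte list CD163 and FCGR3A stayed under 1 CPM, and the sum was 317 to 336 CPM in the overexpressing libraries and 305 to 312 CPM in the controls, nearly all of it LYZ, which promyelocytes also make. B cell markers set the overexpressing libraries apart from each other. In overexpressing replicate 1 they summed to only 21.9 CPM, while the other overexpressing libraries held 90.4 and 87.5 CPM, against 13.6 to 18.8 CPM in the controls. Of the 7 tested B cell markers 4 rose, and CR2 was under 1 CPM in every library. Of the promyelocyte markers 3 of 7 rose (ELANE, AZU1 and PRTN3), of the tested monocyte markers 1 of 5 rose (CX3CR1), and of the tested T cell markers 1 of 2 fell (CD2). Of all tested genes, 14.2% rose and 9.94% fell. The part of these marker shifts in the subunit values was not tested. B cells, monocytes and promyelocytes can all make oxidase subunits, so values of overexpressing replicate 1 are given beside the subunits that changed. Of 36 other genes that passed the test (CD69, NCF1C and those named from the lists), 36 kept their direction with that library alone against the controls. That library was part of the fit by which these genes were chosen, so this was nearly fixed in advance and tells nothing about the B cell markers. In bulk RNA, fewer cells of a type and less RNA per cell cannot be told apart.

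Of the 6 subunit genes, 3 rose in the overexpressing cells (NCF1, NCF4 and RAC2), 1 fell (RAC1) and 2 did not pass the test (CYBB and CYBA). Over all 19485 tested genes, 24.1% passed the test, 14.2% higher and 9.94% lower, by the same rule, an adjusted p under 0.05 in edgeR's quasi-likelihood test with Benjamini-Hochberg adjustment over all tested genes. Those that rose were the cytosolic subunits of the 6 and the blood cell Rac, while neither cytochrome gene passed the test. The median log2 fold change of the 6 was 0.19, beside 0.0059 for all tested genes. These counts over 6 genes are a description.

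**Figure D1:**
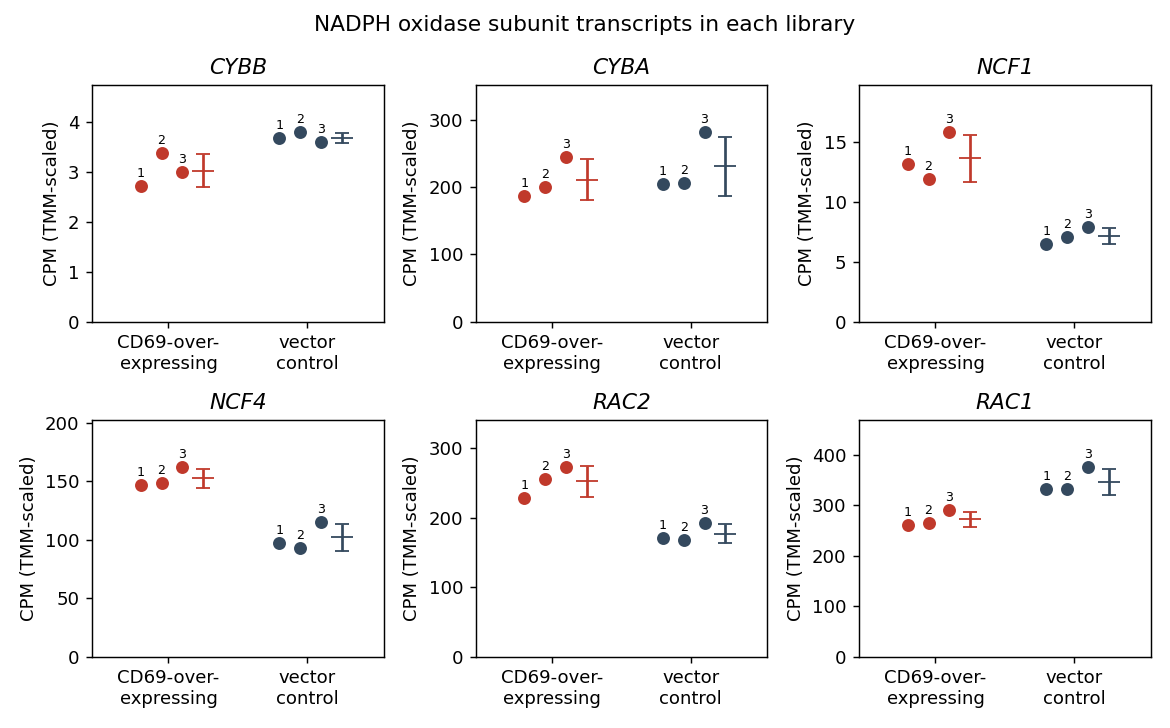
Level of each oxidase subunit gene in CPM (TMM-scaled, linear axes from 0) in the 3 CD69-overexpressing libraries (red, left) and the 3 vector control libraries (blue-grey, right); numbers are replicates, bars are the mean ± SD. NCF1, NCF4 and RAC2 lie above, and CYBB and RAC1 below, every control in all 3 overexpressing libraries, while CYBA overlaps, with overexpressing replicate 3 at 245 CPM above control replicates 1 and 2 at 205 and 206 CPM. Of all tested genes, 23.0% lie wholly above and 19.3% wholly below the controls in this way.

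NCF1 encodes the organiser subunit and has near-identical copies, NCF1B and NCF1C, on the same chromosome, so its counts have to be read with its sequence. The copies lack a GT pair that NCF1 carries early in its coding sequence. The lines below give this stretch from the GENCODE version 29 transcripts of GRCh38, 5′ to 3′, with the pair in capitals. Within this stretch the pair is all that tells NCF1 from its copies.
NCF1: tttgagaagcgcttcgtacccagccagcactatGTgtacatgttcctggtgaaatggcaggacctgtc
NCF1B: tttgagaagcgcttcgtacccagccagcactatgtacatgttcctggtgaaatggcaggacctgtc
NCF1C: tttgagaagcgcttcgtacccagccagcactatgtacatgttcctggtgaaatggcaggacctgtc

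These are bases 110 to 177 of the transcript NCF1-201, 47 to 112 of NCF1B-201 and 141 to 206 of NCF1C-201. The pair lies in a short tgtg repeat, so which of its bases are missing is a matter of convention. Of the 3 annotated NCF1B transcripts, 2 held the shortened stretch, and so did the 1 transcript of NCF1C. Aligned over 1394 bases, NCF1-201 and NCF1C-201 were 99.4% identical, with 8 mismatches and 1 gap. Of the 1247 windows of 150 bases in NCF1-201, the read length of these libraries, 566 (45.4%) occurred unchanged in an annotated transcript of NCF1B or NCF1C. A window stands for 1 read, while the libraries were read in pairs, and the share of pairs common to the copies was not tested. For CYBB, CYBA, NCF4 and RAC2 no window occurred in another gene's transcripts, and for RAC1 206 of 2174 (9.48%) did, all in the pseudogene RAC1P2. How the authors' counting split such reads was not given in the sources used here, so the division of counts between NCF1 and its copies is uncertain.

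NCF1 (ENSG00000158517; GRCh38 chromosome 7, 74773962 to 74789315, plus strand) held 738, 672 and 807 counts in the overexpressing libraries, against 365, 401 and 443 in the controls. All 3 overexpressing libraries were well above all 3 controls, as for 23.0% of all tested genes. Its level averaged 13.6 ± 1.98 CPM in overexpressing cells and 7.16 ± 0.700 CPM in controls (SD, n = 3 each), a log2 fold change of 0.93 (SE 0.15; quasi-likelihood adjusted p = 0.00364), or 1.90-fold. Overexpressing replicate 1, whose B cell marker sum was the lowest of its group but above every control, was at 13.2 CPM. Alone against the controls it gave a log2 fold change of 0.88.

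The copies moved the same way. NCF1B (chromosome 7, 73220624 to 73235945, plus strand), a transcribed pseudogene, held 417, 386 and 524 counts in the overexpressing libraries, against 258, 317 and 321 in the controls, with a log2 fold change of 0.62 (SE 0.20) that did not pass the test (adjusted p = 0.0551). It passed with DESeq2 (adjusted p = 0.0207) and, in edgeR, with counts divided by 4 (0.0417), a filter of 50 counts (0.0407), no factors (0.0489) or a replicate block (0.0418). With any 1 library left out it did not pass (adjusted p 0.0633 to 0.170). NCF1C (chromosome 7, 75156639 to 75172044, minus strand) held 332, 460 and 380 counts in overexpressing cells, against 253, 210 and 268 in controls, and rose by 0.73 on the log2 scale (SE 0.19; adjusted p = 0.0264). That call was lost without overexpressing replicate 2 or 3 or control replicate 1 or 2 (adjusted p up to 0.105). It was also lost under glmTreat at a fold of 1.2 (adjusted p = 0.0705) and without the filter on low counts (edgeR adjusted p = 0.0532). Overexpressing replicate 1 alone against the controls gave a smaller log2 fold change for NCF1C, 0.45. NCF1 took 49.6%, 44.3% and 47.2% of the counts of the 3 genes in the overexpressing libraries and 41.7%, 43.2% and 42.9% in the controls. Taken as 1 gene, the 3 held 26.5, 26.9 and 33.5 CPM in overexpressing cells, against 15.6, 16.4 and 18.4 CPM in controls, and rose by 0.79 on the log2 scale (SE 0.12; adjusted p = 0.0030). The rise was thus also present in the sum, which does not depend on how the counted reads were divided between the copies. Any shared reads that the counting left out of all 3 genes would be missing from the sum as well.

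NCF4 encodes the cytosolic subunit that binds the phosphoinositide of phagosome membranes. The gene (ENSG00000100365; chromosome 22, 36860988 to 36878015, plus strand) held 8203, 8359 and 8269 counts in the overexpressing libraries, against 5447, 5286 and 6448 in the controls. The groups did not overlap, and 23.0% of all tested genes were likewise above every control in every overexpressing library. Its mean level was 152 ± 8.50 CPM in overexpressing cells and 102 ± 11.6 CPM in controls (SD, n = 3 each), a log2 fold change of 0.58 (SE 0.09; adjusted p = 0.00362) and 1.49-fold. Overexpressing replicate 1 stood at 146 CPM beside 148 and 162 CPM in replicates 2 and 3, and alone against the controls it gave 0.52 on the log2 scale (adjusted p = 0.114). The antisense gene NCF4-AS1 shares 27 bases with its exons (1.5% of their length), and whether strand was used in counting is not stated.

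Both Rac genes changed, in opposite directions. RAC2 (ENSG00000128340; chromosome 22, 37225261 to 37244448, minus strand) held 12785, 14403 and 13936 counts in the overexpressing libraries, against 9590, 9521 and 10786 in the controls. Its mean was 252 ± 22.6 CPM in overexpressing cells and 177 ± 13.4 CPM in controls (SD, n = 3 each), a log2 fold change of 0.51 (SE 0.09; adjusted p = 0.00511). As for 23.0% of all tested genes, the lowest overexpressing library, here replicate 1 at 228 CPM, was above the highest control, here at 192 CPM. Alone against the controls that library gave a smaller log2 fold change of 0.36 (adjusted p = 0.168), and its B cell marker sum was the lowest of the group. The part of B cell RNA in the rise of RAC2 was not tested.

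RAC1 (ENSG00000136238; chromosome 7, 6374523 to 6403977, plus strand) held 14650, 14909 and 14798 counts in the overexpressing libraries, against 18574, 18854 and 21052 in the controls. The counts were nearly the same in all 3 overexpressing libraries and lay below every control. In CPM all 3 were also below every control, as for 19.3% of all tested genes. Overexpressing replicate 1 alone gave a log2 fold change of -0.41 (adjusted p = 0.138). Its mean was 272 ± 15.6 CPM in overexpressing cells and 347 ± 25.2 CPM in controls (SD, n = 3 each), a log2 fold change of -0.35 (SE 0.08; adjusted p = 0.0137). The call was lost without overexpressing replicate 1 (adjusted p = 0.0572), without overexpressing replicate 2 (adjusted p = 0.0743) and in a test for folds beyond 1.2 (glmTreat adjusted p = 0.210). Adding the counts of its pseudogenes left the log2 fold change at -0.35.

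The ratio of RAC2 to RAC1 within a library needs no scaling. It was 0.873, 0.966 and 0.942 counts of RAC2 per count of RAC1 in the overexpressing libraries, against 0.516, 0.505 and 0.512 in the controls. The groups lay far apart compared with their spread. The ratio joins the rise of RAC2 and the fall of RAC1 in these same libraries, so it is not separate support for them. The difference of mean log2 ratios was 0.86, or 1.81-fold (exact permutation test, two-sided, p = 0.1, the smallest that 3 against 3 libraries allow). RAC3, the third Rac gene and one known mainly from brain, was a listed gene around the oxidase and fell most of the 3. It averaged 49.0 ± 4.52 CPM in overexpressing cells and 142 ± 24.2 CPM in controls (SD, n = 3 each), a log2 fold change of -1.54 (SE 0.13; adjusted p = 0.000193). Per kb of exon, RAC2 made up 45.4 ± 1.17% of the 3 Rac transcripts in overexpressing cells and 25.6 ± 0.767% in controls, and RAC3 made up 14.6 ± 0.343% in overexpressing cells and 33.8 ± 2.06% in controls. RAC1 kept a share of 39.9 ± 1.11% in overexpressing cells and 40.6 ± 1.32% in controls (SD, n = 3 each).

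**Figure D2:**
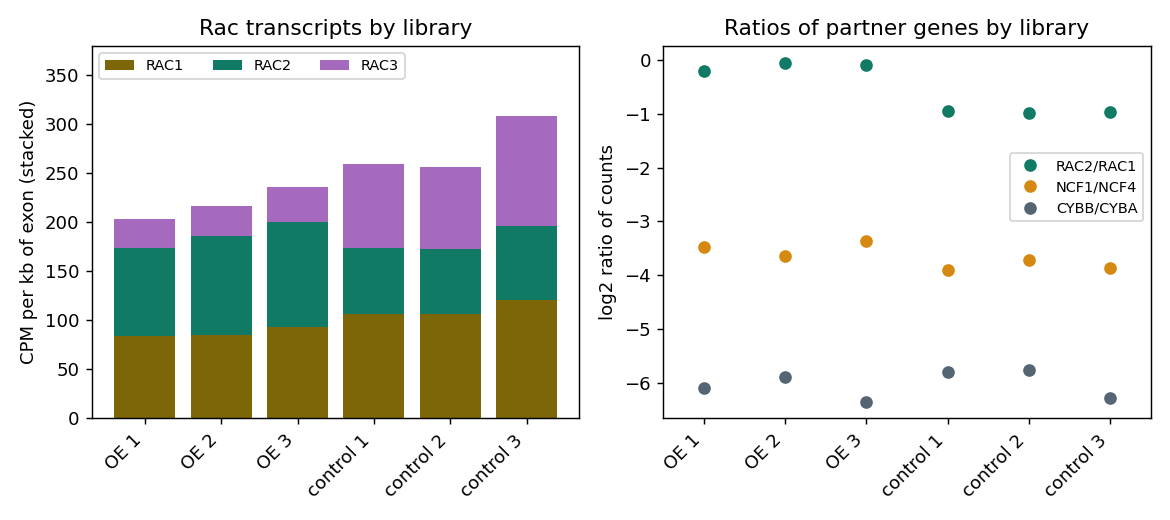
Left, CPM per kb of merged exon of RAC1, RAC2 and RAC3, stacked, in each CD69-overexpressing (OE) and vector control library; right, log2 ratio of counts of 3 pairs of partner genes in the same libraries. RAC2 takes a larger and RAC3 a smaller part of the stack in all 3 overexpressing libraries, and of the ratios RAC2/RAC1 separates the groups most, NCF1/NCF4 by less, and CYBB/CYBA not at all.

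The cytochrome genes did not pass the test. CYBB (ENSG00000165168; chromosome X, 37780011 to 37813461, plus strand), the catalytic subunit that carries the haems and the FAD, held 152, 190 and 153 counts in the overexpressing libraries, against 206, 215 and 201 in the controls. Every overexpressing library was below every control, as for 19.3% of all tested genes. Its level was 3.03 ± 0.330 CPM in overexpressing cells and 3.68 ± 0.102 CPM in controls (SD, n = 3 each), with a log2 fold change of -0.28 (SE 0.18, 95% interval -0.69 to 0.12; adjusted p = 0.289). If a fragment stands for 4 counts, these values rest on 38 to 53.75 fragments per library. How much of the width of the interval comes from depth, and how much from the spread between libraries, was not tested. CYBB lies on X, whose 583 tested genes had a median of 0.43 for the log2 fold change. Of them 252 (43.2%) were called higher and 12 (2.06%) lower, and the part of this shift in the value of CYBB was not tested. On the chromosomes of the other members the medians were 0.05 on 16, 0.06 on 7 and -0.07 on 22.

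CYBA (ENSG00000051523; chromosome 16, 88643283 to 88651152, minus strand), the membrane partner that stabilises CYBB and docks the organiser subunit, held 10449, 11296 and 12490 counts in the overexpressing libraries, against 11497, 11697 and 15757 in the controls. The groups overlapped. Its mean was 210 ± 30.4 CPM in overexpressing cells and 231 ± 43.6 CPM in controls (SD, n = 3 each), with a log2 fold change of -0.13 (SE 0.15, 95% interval -0.48 to 0.21; adjusted p = 0.566). Without control replicate 3, the highest library, the log2 fold change was 0.036 (adjusted p = 0.852). The ratio of CYBB to CYBA counts was 0.0145, 0.0168 and 0.0122 in overexpressing cells, against 0.0179, 0.0184 and 0.0128 in controls, and the groups overlapped (difference of mean log2 ratios -0.16, exact permutation p = 0.5). The ratio of NCF1 to NCF4 was 0.0900, 0.0804 and 0.0976 in overexpressing cells, against 0.0670, 0.0759 and 0.0687 in controls, without overlap (difference 0.34, exact permutation p = 0.1, the smallest possible). These are 3 ratios, and with 3 libraries a group this exact permutation test cannot go below p = 0.1 for any of them.

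Levels of different genes were compared per kb of exon. In overexpressing cells RAC2 came first at 99.6 ± 8.91 CPM per kb, followed by RAC1 at 87.3 ± 5.01, NCF4 at 86.5 ± 4.83 and CYBA at 62.7 ± 9.05 CPM per kb (SD, n = 3 each). Of these, RAC2, RAC1 and NCF4 overlapped across libraries, though within each overexpressing library RAC2 was above RAC1. Far below were NCF1 at 3.94 ± 0.573 and CYBB at 0.684 ± 0.0745 CPM per kb. In the controls the order was RAC1 at 111 ± 8.11, RAC2 at 70.0 ± 5.28, CYBA at 68.8 ± 13.0 and NCF4 at 57.9 ± 6.62 CPM per kb, of which RAC2 and CYBA overlapped, as did CYBA and NCF4. NCF1 followed at 2.07 ± 0.202 and CYBB at 0.833 ± 0.0231 CPM per kb. Among all tested genes with a known exon length, mean levels over the 6 libraries placed RAC1, RAC2, NCF4 and CYBA above the 96th percentile, NCF1 at the 52nd and CYBB at the 32nd. The catalytic subunit was thus the least abundant transcript of the 6 in every library, and its membrane partner among the most abundant transcripts of the cell.

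Of 10 partner genes listed around the complex, all tested, 2 rose (20.0%) and 1 fell (10.0%), beside 14.2% and 9.94% of all tested genes. The other 7 did not reach the threshold, and the median log2 fold change was 0.08. The counts of this and the following lists are a description. S100A9, a calcium-binding protein that helps assemble the oxidase, fell to 6.86 ± 1.47 CPM in overexpressing cells, against 20.8 ± 2.84 CPM in controls (log2 fold change -1.60, SE 0.18; adjusted p = 0.000717). MSN, the actin linker moesin, which binds cytosolic subunits, rose by 0.59 on the log2 scale (SE 0.08; adjusted p = 0.00185) and lies on X. RAP1A, a small GTPase found with the cytochrome, rose by 0.46 (SE 0.07; adjusted p = 0.00355). CYBC1, the chaperone of the cytochrome, averaged 113 ± 5.30 CPM in overexpressing cells and 106 ± 10.1 CPM in controls and did not pass the test (log2 fold change 0.09, adjusted p = 0.466). The proton channel gene HVCN1 held 9, 88 and 62 counts in overexpressing replicates 1, 2 and 3, against 27, 10 and 4 in the controls (adjusted p = 0.153), the same libraries being high as for the B cell markers. TCTN1, on the opposite strand, shares 635 bases with the exons of HVCN1 (17.2% of their length).

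**Figure D3:**
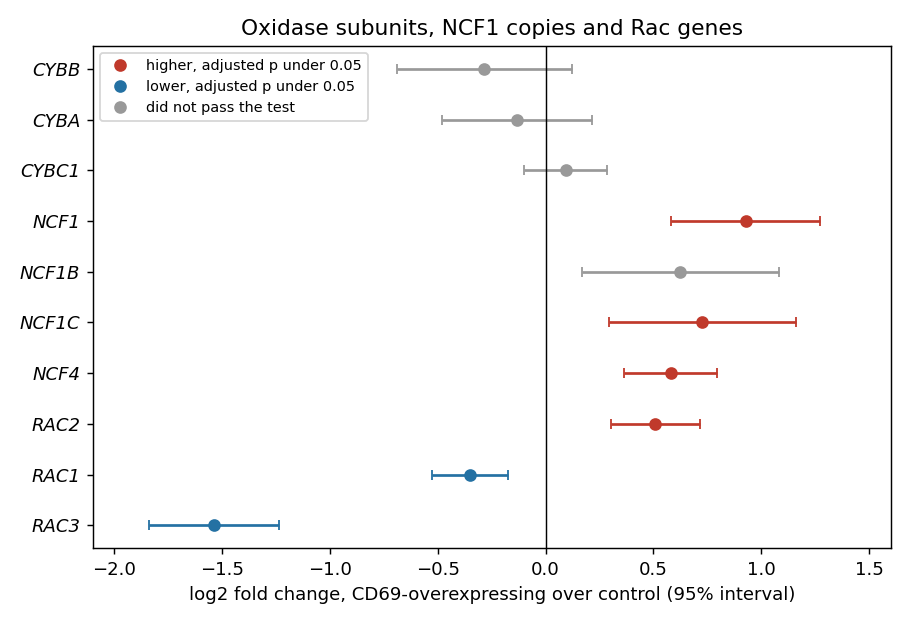
Log2 fold change of CD69-overexpressing over control cells with its 95% interval (edgeR quasi-likelihood fit, 3 libraries a group) for oxidase subunits, the chaperone CYBC1, the NCF1 copies and the Rac genes. NCF1, NCF4 and RAC2 lie right of 0 and RAC1 and RAC3 left of it, between 0.93 for NCF1 and -1.54 for RAC3, while the intervals of CYBB, CYBA and CYBC1 include 0.

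Other NADPH oxidases were little expressed. Of 10 such genes, NOX3 and NOX4 had no count in any library, NOX5, NOXO1, DUOXA1 and DUOXA2 did not pass the filter on low counts, and NOX1, DUOX1 and DUOX2 stayed under 1 CPM in each library and did not pass the test. NOXA1, the activator subunit of NOX1, was the exception, at 6.19 ± 0.524 CPM in overexpressing cells and 4.01 ± 0.563 CPM in controls (log2 fold change 0.63, SE 0.17; adjusted p = 0.0340). It has exons over those of ENTPD8 on the other strand, and its call was lost when any 1 library other than control replicate 3 was left out (adjusted p up to 0.126).

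Rac is loaded with GTP by exchange factors. Of 18 tested, 4 rose (22.2%) and 2 fell (11.1%), beside 14.2% and 9.94% of all tested genes. The other 12 did not reach the threshold (median log2 fold change of the list -0.06). DEF6, an exchange factor of blood cells, rose most clearly, to 386 ± 4.04 CPM in overexpressing cells, against 182 ± 14.8 CPM in controls (log2 fold change 1.08, SE 0.07; adjusted p = 7.35e-05). ARHGEF6, on X, rose by 0.51 (SE 0.10). TIAM1 fell by 1.02 (SE 0.15) and ELMO1, the partner of the DOCK proteins, fell by 0.50 (SE 0.07). The antisense gene ELMO1-AS1 shares 86 bases with the exons of ELMO1 (0.9% of their length), so part of the ELMO1 counts is uncertain. VAV1, the main exchange factor for the neutrophil oxidase in mice, was at 97.2 ± 0.544 CPM in overexpressing cells and 111 ± 9.33 CPM in controls and did not pass the test (adjusted p = 0.112).

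Inhibitors and GTPase-activating proteins of Rac had 4 higher (26.7%) and 2 lower (13.3%) of 15 tested, beside 14.2% and 9.94% of all tested genes. Their median log2 fold change was -0.05. ARHGAP1 and ARHGAP9 rose by 0.86 (SE 0.06) and 0.64 (SE 0.10), and ABR and ARHGAP24 fell by 0.85 (SE 0.07) and 0.91 (SE 0.20). ARHGAP9, ABR and ARHGAP24 overlap genes of the other strand, and the ARHGAP24 call was lost without control replicate 2 (adjusted p = 0.0510). ARHGDIB, the RhoGDI that holds Rac in the cytosol of blood cells, was at 925 ± 6.80 CPM in overexpressing cells and 959 ± 69.3 CPM in controls, without passing the test (adjusted p = 0.619).

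Of 22 kinases and associated subunits that prime the oxidase, 6 rose (27.3%) and 3 fell (13.6%), beside 14.2% and 9.94% of all tested genes. The median log2 fold change of the 22 was 0.017. MAPK14, the p38 kinase that phosphorylates the NCF1 protein, rose to 343 ± 9.60 CPM in overexpressing cells, against 209 ± 7.43 CPM in controls (log2 fold change 0.72, SE 0.06; adjusted p = 0.000181), and the tyrosine kinase BTK, on X, rose by 0.73 (SE 0.07). The Rac effector kinase PAK1 fell by 0.56 (SE 0.08), with exons over those of another gene on the opposite strand, and the tyrosine kinase FGR fell by 0.53 (SE 0.07). PRKCD, the protein kinase C isoform best known for phosphorylating the NCF1 protein, was at 178 to 182 CPM in overexpressing cells and 191 to 208 CPM in controls (adjusted p = 0.131).

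Among 17 transcription factors reported to act on subunit genes, 3 rose (17.6%) and 2 fell (11.8%), near the 14.2% and 9.94% of all tested genes. The median log2 fold change of the 17 was -0.04. IRF8, a factor of CYBB in myeloid cells, rose to 130 ± 1.84 CPM in overexpressing cells, against 79.7 ± 1.04 CPM in controls (log2 fold change 0.71, SE 0.06; adjusted p = 0.000143). HOXA10, a repressor of CYBB in immature myeloid cells, rose by 0.47 (SE 0.07), with exons shared with another gene on its strand and with an antisense gene. RUNX1 fell by 0.84 (SE 0.09). SPI1, which encodes PU.1, an activator of the CYBB, NCF1 and NCF4 promoters, averaged 105 ± 9.93 CPM in overexpressing cells and 135 ± 16.3 CPM in controls and fell by 0.37 (SE 0.11; adjusted p = 0.0398). Its call was lost on leaving out any 1 library other than overexpressing replicate 3 (adjusted p up to 0.151).

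Receptors that trigger the burst had 2 higher (13.3%) and 4 lower (26.7%) of 15 tested, beside 14.2% and 9.94% of all tested genes. Their median log2 fold change was -0.13. The formyl peptide receptor FPR2 fell to 11.2 ± 0.624 CPM in overexpressing cells, against 29.1 ± 1.19 CPM in controls (log2 fold change -1.39, SE 0.09), and the integrin subunit ITGB2 fell by 0.49 (SE 0.06). The Fc receptor FCGR2A rose by 0.57 (SE 0.11). CSF2RA, a subunit of the GM-CSF receptor on X, rose by 0.34 (SE 0.10; adjusted p = 0.0425), a call lost on leaving out any 1 library (adjusted p 0.0623 to 0.138). ITGB2 and FCGR2A also share exon bases with other genes.

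Genes that handle superoxide and peroxide had 1 higher (5.56%) and 3 lower (16.7%) of 18 tested, beside 14.2% and 9.94% of all tested genes. Their median log2 fold change was -0.11. CAT, catalase, fell to 272 ± 2.62 CPM in overexpressing cells, against 398 ± 15.1 CPM in controls (log2 fold change -0.55, SE 0.06; adjusted p = 0.000534), and the peroxidase PRDX1 fell by 0.78 (SE 0.11). PRDX2 rose by 0.74 (SE 0.21; adjusted p = 0.0409), a call lost without overexpressing replicate 1 or 3 or control replicate 1 or 3 (adjusted p up to 0.111) and with the replicate number as a block (adjusted p = 0.0665). PRDX1 shares exon bases with MMACHC, and PRDX2 with an unnamed locus, on the opposite strand. Of 12 genes that supply NADPH, 2 rose (16.7%) and 1 fell (8.33%), near the shares of all tested genes (median of the list 0.06). TKT rose by 0.33 (SE 0.07) and IDH1 by 0.27 (SE 0.06), and PGD fell by 0.30 (SE 0.07). Each of these 3 calls was lost without overexpressing replicate 1 or 2, those of TKT and IDH1 also without control replicate 2 and that of TKT without control replicate 1 (adjusted p up to 0.0802). Of 10 genes for haem and FAD, which the CYBB protein carries, 3 rose (30.0%) and 1 fell (10.0%), beside the same shares of all tested genes (median of the list 0.02). ALAS1, the first enzyme of haem synthesis, rose by 0.58 (SE 0.06) and PPOX by 0.60 (SE 0.10), while UROD fell by 0.67 (SE 0.09). PPOX shares exon bases with B4GALT3, and IDH1 with IDH1-AS1, on the opposite strand.

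**Figure D4:**
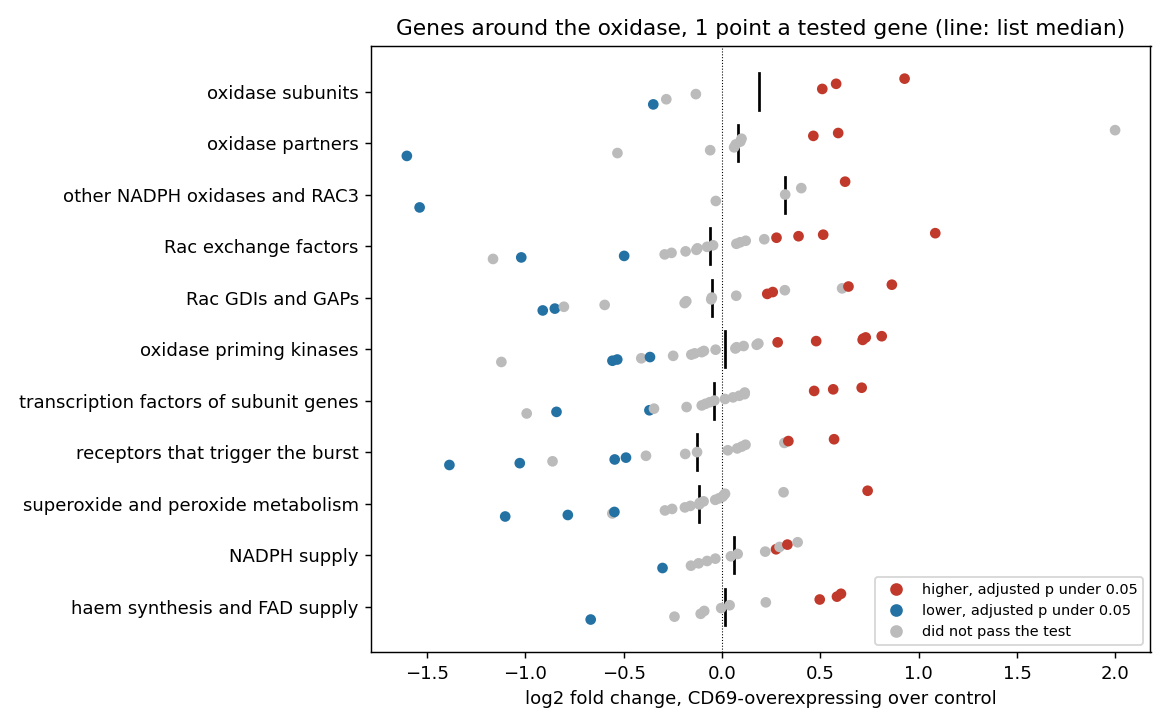
Log2 fold change of CD69-overexpressing over control cells for each tested gene of the oxidase subunits and of 10 lists around the oxidase, 1 point a gene, coloured by the edgeR quasi-likelihood test; vertical lines are list medians. Medians lie between -0.13 for receptors and 0.32 for the list of other NADPH oxidases with RAC3, and every list holds genes that rose and genes that fell.

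The genes whose pattern was most like that of each changed member were found by the root mean square difference in log2 CPM, centred on the control mean, over the 6 libraries, among tested genes of at least 5 CPM. For NCF1 they were PLAUR, the urokinase receptor, TMSB4XP8 and F8A2 (differences of 0.06, 0.07 and 0.07 log2 units). NCF4 was nearest to FDPS, CDC25B and TSC22D4 (each 0.03), RAC1 to NASP (0.01), CCDC97 and ADA (each 0.02), and RAC2 to PEDS1, NPAS1 and RAE1 (each 0.03). With 6 libraries in 2 groups, such closeness describes these libraries only.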

How the data were processed

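The authors deposited 1 table of estimated counts per gene for 6 libraries of poly(A) RNA, strand-specific by the dUTP method and read in 150-base pairs, per the labels' protocols. The submitters' processing notes name FastQC, fastp, STAR and featureCounts of Subread with GRCh38 (hg38). Not given in the sources used here are tool versions, annotation release, strand setting and counting unit. All values were whole numbers and needed no rounding. However, 1410 genes of overexpressing replicate 1 held exactly 4 counts beside 1013 with 2, 761 with 3 and 494 with 5. One fragment may thus equal some 4 counts, with depth lower to match. Intervals and SEs come from the fit across libraries.

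Symbols came from a gene name table and positions and exon lengths from GENCODE 29. Genes kept by filterByExpr were scaled by TMM and tested with glmQLFit and glmQLFTest (edgeR 4.0.16, limma 3.58.1, R 4.3.3) and adjusted by Benjamini-Hochberg over the 19485 genes. The SE is the log2 fold change over the root of its F statistic. Libraries of a group differed from each other by more than counting noise (with counts divided by 4, chi-square over its degrees of freedom was 2.36 to 14.1). In both groups it was lowest between replicates 1 and 2, at 2.36 in controls and 4.49 in overexpressing cells. Pairs with replicate 3 gave 12.9 and 14.1 in controls and 8.13 and 9.02 in overexpressing cells. Shared windows and alignments used Biopython 1.88, exact permutation tests scipy 1.17.1, and figures matplotlib 3.10.9. Alternatives were RLE, upper-quartile and no factors, other filters, DESeq2 1.42.0, limma-voom, glmTreat, a replicate block, counts divided by 4, summed copies, overexpressing replicate 1 alone and each library left out. The fit was tested on simulated counts.

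The members, lists and tests were chosen with earlier results of these data known. Named genes were CD69, the members, both NCF1 copies, every called partner gene, up to 2 higher and 2 lower genes of each other list with the smallest p, and the nearest genes. Others (CYBC1, HVCN1, VAV1, ARHGDIB, PRKCD, the uncalled NOX and DUOX genes and the markers) were named after their values were seen. SOD2 of the peroxide list was not analysed here, and 3 other listed genes are not reported here and are left out of the list counts.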

Additional observations from a re-analysis of the deposited data

How the results depend on the processing

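Of the 6 subunit genes under all alternatives, 96 values kept their direction and side of the threshold, 7 no longer passed and 1 reversed. CYBA ran from -0.25 to 0.036 on the log2 scale with each library left out, with the reversal without control replicate 3. RAC1 ran from -0.40 to -0.28 and did not pass without overexpressing replicate 1 or 2, nor under glmTreat at a fold of 1.2 (-0.35, adjusted p = 0.210). With overexpressing replicate 1 alone against the controls, whose spread it is assumed to share, NCF1 (0.88), NCF4 (0.52), RAC1 (-0.41) and RAC2 (0.36) kept their direction without passing. The counts of 2767 genes higher and 1937 lower became 797 and 380 in that fit, 1723 and 874 under glmTreat, and 1783 to 2917 higher and 1137 to 2226 lower with each library left out, lowest without overexpressing replicate 2 and highest without control replicate 3. Lower calls were also 1227 without control replicate 1 and 1287 without control replicate 2. The same alternatives for the other named genes were added after seeing the data: 74 values no longer passed, 5, all of NCF1B, newly passed, 550 kept their call and none reversed. The cause of these changes was not tested. Over all tested genes, deviations of same-numbered libraries were nearly uncorrelated (-0.03, 0.05 and 0.07), with -0.09 to 0.05 for differently numbered ones. A replicate block gave 3194 genes higher and 2669 lower and changed no call of a subunit (RAC1 -0.35, adjusted p = 0.0020). It lowered the SE of CYBA from 0.15 to 0.05 and of RAC1 from 0.08 to 0.04. The SEs of RAC2 and NCF4 went from 0.09 to 0.05 and that of NCF1 from 0.15 to 0.12, while that of CYBB stayed at 0.18. Whether same-numbered libraries shared a step of handling was not tested. CYBB had the fewest counts of the 6, 152 to 215 per library.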
